A study of Mus musculus with 2 samples.

Results

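The genes described here are the aminoacyl-tRNA synthetases and 3 of their non-catalytic partner proteins, measured as messenger RNA in mouse T helper 17 (Th17) cells. They were taken from the deposited gene table by name. A member is a gene whose symbol is 1 capital letter followed by "ars", with or without a final 1 or 2, or is Eprs, Farsa, Farsb, Tarsl2, Aimp1, Aimp2 or Eef1e1. The rule reads gene names only. The rule found 41 of the 22036 named genes. They comprise 19 cytosolic enzymes, 2 enzymes that serve both cytosol and mitochondria from 1 gene (Gars and Kars), 17 mitochondrial enzymes and 3 scaffold proteins.

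An aminoacyl-tRNA synthetase joins an amino acid to its own transfer RNA, and each protein made by a ribosome depends on this step. Animal cells carry separate nuclear genes for most cytosolic and mitochondrial enzymes, the mitochondrial set being named with a final 2 and serving translation of the respiratory chain subunits encoded in mitochondrial DNA. Several cytosolic enzymes sit in a multisynthetase complex held together by the scaffold proteins encoded by Aimp1, Aimp2 and Eef1e1. T cells leaving rest enlarge and increase protein synthesis, and many cytosolic synthetase genes are known targets of ATF4, a transcription factor that responds to amino acid shortage.

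The study compared a culture labelled pathogenic Th17 (pTh17) with one labelled non-pathogenic Th17 (npTh17), with 1 library each. CD4+ T cells of wild-type mice, taken from spleen and lymph nodes, were grown on plates coated with anti-CD3 (10 μg/mL) and anti-CD28 (5 μg/mL), antibodies that stimulate T cells. The pTh17 culture received IL-6 (20 ng/mL) and activin A (20 ng/mL). The npTh17 culture received IL-6 (20 ng/mL) and TGFβ1 (2 ng/mL). Both held antibodies against IFNγ and IL-4, and both were collected at 24 h. Strain, age and the number of animals behind each culture were not stated in the labels.

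Counts on named genes summed to 30877656 in the pTh17 library and 33470161 in the npTh17 library. All 6 CD4 T cell markers examined (Cd3e, Cd3g, Cd3d, Cd4, Cd28 and Lck) were present, summing to 1887 CPM (counts scaled to a common library total) in the pTh17 library and 1923 CPM in the npTh17 library, although single markers lay on both sides of 0, with log2 ratios of pTh17 over npTh17 from -0.59 (Cd3e) and -0.45 (Cd3g) to 0.27 (Cd3d). Of the Th17 genes, Il17f had 394 CPM in the pTh17 library and 587 CPM in the npTh17 library, Il17a had 7.86 CPM in pTh17 and 6.19 CPM in npTh17, and Il23r had 12.8 CPM in pTh17 and 3.44 CPM in npTh17. Markers of other cells were low in both. The 5 CD8 T and NK cell markers summed to 2.07 CPM in the pTh17 library and 2.06 CPM in the npTh17 library, with 2 of the 5 at 0 in both. The 4 B cell markers summed to 25 counts in the pTh17 library and 6 in the npTh17 library, the 5 myeloid markers to 7 counts in pTh17 and 30 in npTh17, and the 3 erythroid markers to 54 counts in pTh17 and 78 in npTh17. Of these, 1 B cell marker and 3 myeloid markers were at 0 in both libraries. Their part in the results below was not tested. With 1 library per condition there is no replicate check and no test between conditions. Each ratio below compares these libraries, and its interval covers counting error only.

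The ratio of a gene is the log2 of its scaled CPM in the pTh17 library over that in the npTh17 library, so a positive value means a higher level in the pTh17 library. The 95% interval given with it is an exact Clopper-Pearson interval of the share of the gene's counts that fell in the pTh17 library. A bulk library cannot tell fewer cells with a transcript from less of the transcript per cell. All 41 members had a mean of at least 1 CPM, as had 10597 genes in all. The members as a whole took nearly the same share of counts in both libraries. All members together held 0.621% of named-gene counts in the pTh17 library (95% interval 0.618 to 0.624) and 0.606% in the npTh17 library (0.603 to 0.609). Of summed FPKM (fragments relative to transcript length and depth), they held 0.478% in the pTh17 library and 0.492% in the npTh17 library, the other order. The median ratio was 0.047 over the members and -0.0045 over all 10597 genes, with 25 members above 0 and 16 below. With ratios from FPKM, 21 members were above 0, and the medians were 0.0047 (members) and -0.0052 (all genes). No member reached a 2-fold difference in either direction. Of all genes kept, 2.25% differed at least 2-fold with the higher level in the pTh17 library, and 1.95% with the lower level there. A smaller difference was also counted, in which the higher library had at least 25% more CPM than the other. By this threshold, 2 of 41 members were higher in the pTh17 library, where 16.5% of all genes were, and 5 of 41 were lower, where 15.2% of all genes were. All 7 are mitochondrial enzymes.

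**Figure D1:**
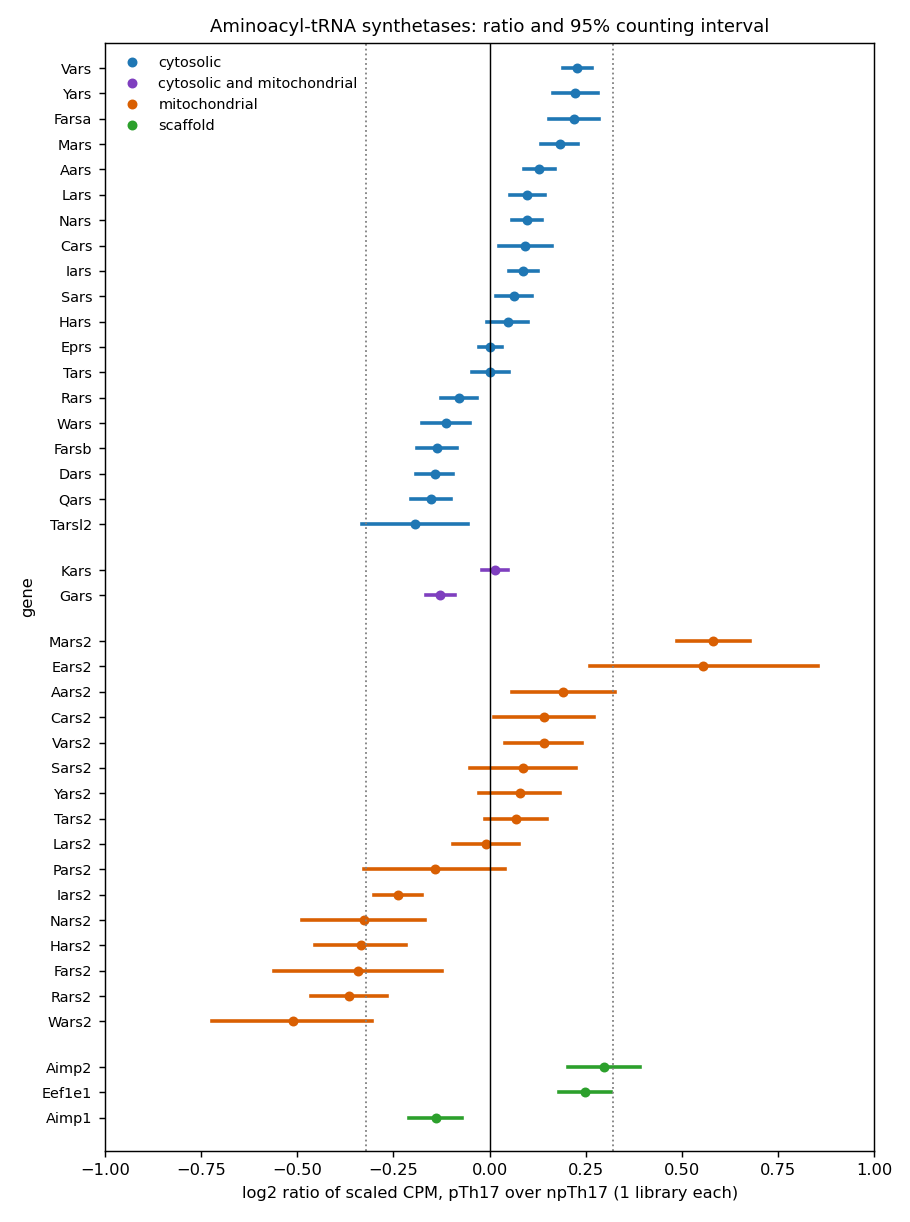
Log2 ratio of scaled CPM, pTh17 over npTh17, for 40 of the 41 genes (points), with its 95% counting interval (bars), grouped by where the protein works; the dotted lines mark 25% more CPM in the higher library. All 19 cytosolic enzymes lie between the dotted lines, and 7 of the 16 mitochondrial enzymes shown lie outside them, from -0.51 (Wars2) to 0.58 (Mars2).

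The cytosolic enzymes differed little between the libraries. Their ratios ran from -0.19 to 0.23, with a median of 0.063, 13 above 0 and 6 below. None of the 19 was past the 25% threshold in either direction, whereas 21.4% of genes within the same range of mean CPM (27.4 to 564) were. As a group they held 0.445% of named-gene counts in the pTh17 library (0.443 to 0.447) and 0.428% in the npTh17 library (0.426 to 0.431). Measured as a share of summed FPKM, a unit of fragments relative to transcript length and depth, the order was the other way round, at 0.312% in the pTh17 library and 0.315% in the npTh17 library.

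Among the cytosolic enzymes with the higher ratios was Vars, which charges valine. Vars had 11604 counts (375 CPM) in the pTh17 library, against 10711 counts (320 CPM) in the npTh17 library, a ratio of 0.23 (0.19 to 0.27), or 0.13 with the length and GC trend removed. Yars, the tyrosine enzyme, had 5010 counts (162 CPM) in the pTh17 library and 4638 counts (139 CPM) in the npTh17 library, a ratio of 0.22 (0.17 to 0.28). Both genes were higher in the pTh17 library by less than 25%. Mars, which charges both initiator and elongator methionine tRNA, had 7287 counts in the pTh17 library and 6943 counts in the npTh17 library (0.18, 0.13 to 0.23). Aars, the alanine enzyme, had 9996 counts in the pTh17 library and 9878 counts in the npTh17 library (0.13, 0.089 to 0.17). Smaller positive ratios were found for Lars (leucine, 0.098), Nars (asparagine, 0.097), Cars (cysteine, 0.093), Iars (isoleucine, 0.087), Sars (serine, 0.063) and Hars (histidine, 0.047). The interval of Hars, -0.0056 to 0.099, included 0.

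Eprs and Tars had almost the same level in both libraries. Eprs encodes a single protein that charges both glutamate and proline, and had 565 CPM in the pTh17 library and 564 CPM in the npTh17 library, a ratio of 0.0022 (-0.028 to 0.032). Tars, the threonine enzyme, had 211.4 CPM in the pTh17 library and 211.1 CPM in the npTh17 library, a ratio of 0.0018 (-0.047 to 0.051). Below 0 lay Rars (arginine, -0.079), Wars (tryptophan, -0.11), Farsb (-0.14), Dars (aspartate, -0.14), Qars (glutamine, -0.15) and Tarsl2 (-0.19), each with an interval below 0. Qars had 5260 counts in the pTh17 library, against 6318 counts in the npTh17 library. Tarsl2 encodes a second cytosolic threonine enzyme and was the least abundant of the 19, with 791 counts in the pTh17 library and 978 counts in the npTh17 library.

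The phenylalanine enzyme of the cytosol is a tetramer of alpha and beta subunits, and its subunit genes had ratios of opposite sign. Farsa, the alpha subunit, had 4085 counts (64.6 FPKM) in the pTh17 library and 3792 counts (54.8 FPKM) in the npTh17 library, a ratio of 0.22 (0.16 to 0.28). Farsb, the beta subunit, had 5492 counts (82.2 FPKM) in the pTh17 library and 6526 counts (87.2 FPKM) in the npTh17 library, a ratio of -0.14 (-0.19 to -0.085). The FPKM of Farsa over that of Farsb was 0.786 in the pTh17 library and 0.629 in the npTh17 library. Farsb shares 9.47% of its annotated exon bases with Sgpp2 on the opposite strand, and the counting is not stated to use strand, so part of its count may belong to that neighbour.

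Gars and Kars each supply both compartments from 1 gene. Gars, the glycine enzyme, had 10547 counts (341 CPM) in the pTh17 library and 12459 counts (373 CPM) in the npTh17 library, a ratio of -0.13 (-0.17 to -0.091). Kars, the lysine enzyme, was nearly level at 431 CPM in the pTh17 library and 427 CPM in the npTh17 library (0.014, -0.020 to 0.048). Per transcript length Kars was the most abundant of all 41 members, with 185 FPKM in the pTh17 library and 186 FPKM in the npTh17 library, and Gars came second with 126 FPKM in the pTh17 library and 138 FPKM in the npTh17 library.

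Ratios of the mitochondrial enzymes were spread wider than those of the cytosolic ones. The standard deviation across genes was 0.31 over 17 mitochondrial enzymes and 0.14 over 19 cytosolic enzymes. Both lay below the 0.49 over all 10597 genes. The median ratio of the mitochondrial enzymes was 0.010, with 9 above 0 and 8 below, against 0.063 for the cytosolic enzymes. The median half-width of the counting interval was 0.13 for mitochondrial enzymes and 0.048 for cytosolic ones, so the mitochondrial ratios also carry more counting error. Past the 25% threshold were 7 of 17 (41.2%), beside 28.3% of the genes within the same range of mean CPM (6.14 to 130). The summed share of counts hardly differed, at 0.0701% of named-gene counts in the pTh17 library (0.0692 to 0.0710) and 0.0710% in the npTh17 library (0.0701 to 0.0719).

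Higher in the pTh17 library by at least 25% were Mars2 and Ears2. Mars2 (ENSMUSG00000046994; chromosome 1, positions 55237177 to 55248470, forward strand, mm10) charges the mitochondrial methionine tRNA. It had 2182 counts (70.6 CPM) in the pTh17 library, against 1575 counts (47.1 CPM) in the npTh17 library. The ratio of 0.58 (0.49 to 0.68) is a 1.50-fold higher level (1.40 to 1.60), the largest among the 41 members. Ears2, the mitochondrial glutamate enzyme, also charges glutamine tRNA with glutamate, which the amidotransferase GatCAB then converts. It was among the least abundant members, with 226 counts (7.31 CPM) in the pTh17 library and 166 counts (4.97 CPM) in the npTh17 library, a ratio of 0.55 (0.26 to 0.85) or 1.47-fold (1.20 to 1.81).

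Wars2, Rars2, Fars2, Hars2 and Nars2 were lower in the pTh17 library, each with at least 25% more CPM in the npTh17 library. Wars2 (ENSMUSG00000004233; chromosome 3, positions 99141068 to 99239186, forward strand, mm10) is the mitochondrial tryptophan enzyme. It had 319 counts (10.3 CPM) in the pTh17 library, against 492 counts (14.7 CPM) in the npTh17 library, a ratio of -0.51 (-0.72 to -0.31). This is a 1.43-fold higher level in the npTh17 library (1.24 to 1.65). Rars2, the mitochondrial arginine enzyme, had 1434 counts (46.4 CPM) in the pTh17 library and 1997 counts (59.8 CPM) in the npTh17 library, a ratio of -0.37 (-0.46 to -0.27). Fars2, which charges phenylalanine as a single chain, had 300 counts in the pTh17 library and 411 counts in the npTh17 library (-0.34, -0.56 to -0.12). Hars2, the mitochondrial histidine enzyme, had 1006 counts in the pTh17 library and 1372 counts in the npTh17 library (-0.34, -0.45 to -0.22). Nars2, the asparagine enzyme, had 555 counts in the pTh17 library and 753 counts in the npTh17 library (-0.33, -0.49 to -0.17). The last 3 lay just past the threshold. Iars2 (isoleucine) lay short of it, at a ratio of -0.24 (-0.30 to -0.18), with 3688 counts in the pTh17 library and 4702 counts in the npTh17 library.

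The number of mitochondrial enzymes past the threshold on the lower side depended on processing. It was 3 with ratios from the deposited FPKM (Hars2, Rars2 and Wars2), 3 with a trend over transcript length removed (Fars2, Rars2 and Wars2) and 2 with a trend over length and GC content removed (Fars2 and Wars2). Wars2 was past it under all of these, and Mars2 and Ears2 stayed past the threshold on the higher side under all of these.

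The other mitochondrial enzymes were closer to equal. Positive ratios were found for Aars2 (alanine, 0.19), Cars2 (cysteine, 0.14), Vars2 (valine, 0.14), Sars2 (serine, 0.087), Yars2 (tyrosine, 0.078) and Tars2 (threonine, 0.069). Of these, the intervals of Aars2, Cars2 and Vars2 lay above 0. Lars2 (leucine) had a ratio of -0.0091 (-0.094 to 0.076), and Pars2 (proline) one of -0.14 (-0.33 to 0.041), both with intervals that include 0.

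Over all 41 members, the counting interval excluded 0 in 31 (75.6%), 17 above and 14 below, beside 66.9% of all 10597 genes. Halving all counts, as would hold if each fragment had been counted at both ends, left 26, without Cars, Sars, Tarsl2, Cars2 and Vars2. At these depths an interval that excludes 0 is thus the usual case, and it says nothing about the spread between cultures.

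**Figure D2:**
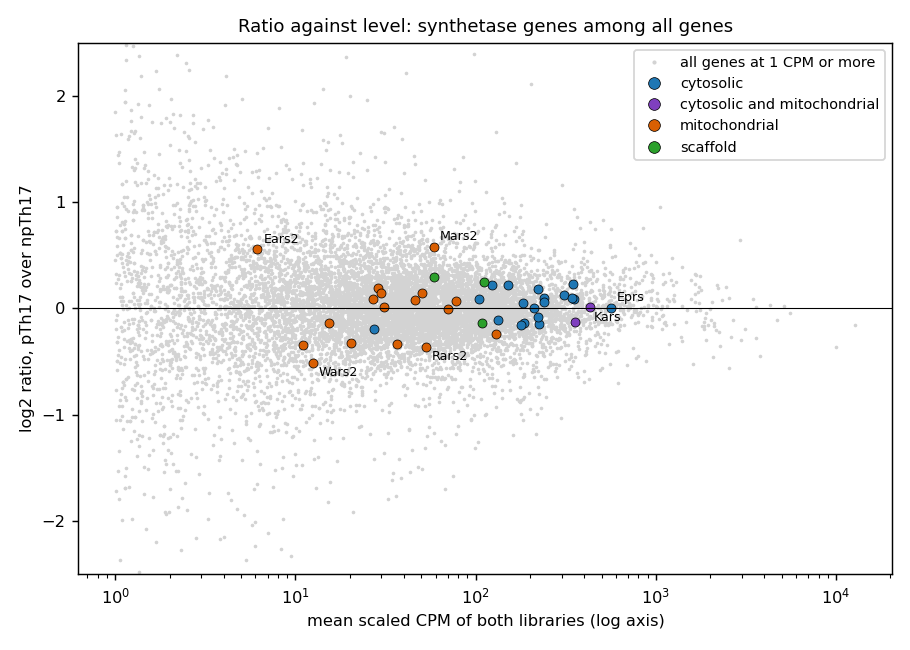
Log2 ratio, pTh17 over npTh17, against mean scaled CPM (log axis) for the 41 genes (coloured points) among all 10597 genes (grey points); 35 genes lie beyond the vertical limits. The cytosolic enzymes (27.4 to 564 CPM) form a narrow band around 0, and the mitochondrial enzymes (6.14 to 130 CPM) spread from -0.51 to 0.58.

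Levels per transcript length separated the compartments far more than the culture conditions did. Cytosolic enzymes had a median of 70.2 FPKM (7.02 to 119) in the pTh17 library and 62.2 FPKM (8.06 to 111) in the npTh17 library. Mitochondrial enzymes had a median of 9.23 FPKM (2.05 to 30.9) in the pTh17 library and 9.68 FPKM (2.12 to 30.3) in the npTh17 library. The cytosolic median was thus 7.61 times the mitochondrial one in the pTh17 library and 6.42 times in the npTh17 library.

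Pairing enzymes for the same amino acid gave 19 pairs over the 17 mitochondrial enzymes. The cytosolic member had the higher FPKM in both libraries in 18 pairs. The exception was Tarsl2, which stood at 0.227 times the FPKM of Tars2 in the pTh17 library and 0.266 times in the npTh17 library. The median cytosolic to mitochondrial FPKM ratio was 7.68 in the pTh17 library and 7.08 in the npTh17 library. The widest pair was Eprs over Ears2, at 32.2 in the pTh17 library and 47.6 in the npTh17 library, Ears2 being the partner whose level differed. Mars over Mars2 was 12.8 in the pTh17 library and 16.9 in the npTh17 library. The gap went the other way for Wars over Wars2, at 19.4 in the pTh17 library and 14.9 in the npTh17 library, and for Nars over Nars2, at 27.8 in the pTh17 library and 21.1 in the npTh17 library. The narrowest of the other pairs was Tars over Tars2, at 1.50 in the pTh17 library and 1.53 in the npTh17 library.

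The CPM ratios of the partners in a pair had the same sign in 11 pairs and opposite signs in 8. Of all 10597 genes, 5240 were above 0 and 5357 below, so opposite signs are common between any genes. The counting intervals of the partners did not overlap in 9 pairs. No share over all genes was taken for this count, so it cannot be read as a trait of these pairs. Single intervals excluded 0 in 66.9% of all genes, which is a different measure.

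**Figure D3:**
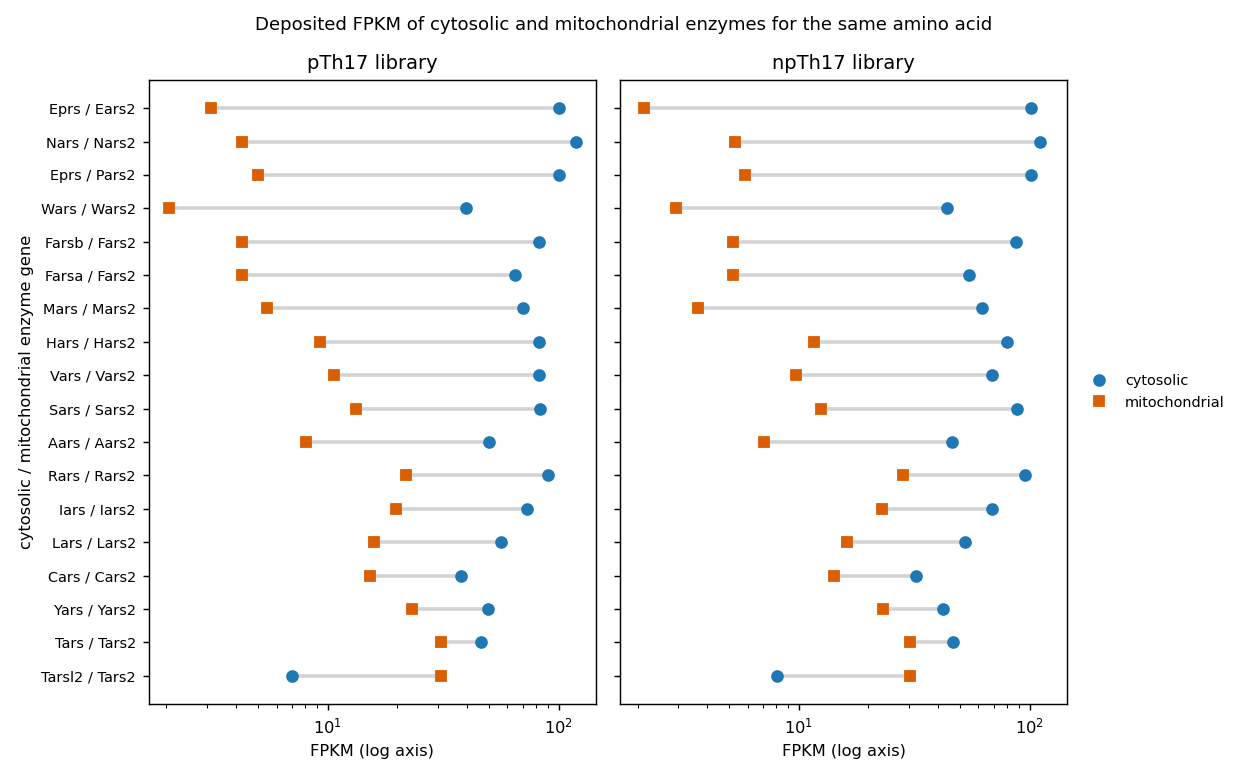
Deposited FPKM (log axis) of the cytosolic enzyme (circles) and the mitochondrial enzyme (squares) for the same amino acid in the pTh17 library (left) and the npTh17 library (right), with a grey line joining each pair. Of the 18 pairs shown, 17 have the cytosolic enzyme to the right in both libraries; Tarsl2 with Tars2 is the exception.

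The 8 enzymes of the multisynthetase complex (Dars, Eprs, Iars, Kars, Lars, Mars, Qars and Rars) had a median ratio of 0.0080, with 5 above 0. The 13 cytosolic or dual enzymes outside it had a median of 0.063, with 9 above 0. With ratios from FPKM the medians were -0.0029 (complex) and 0.041 (outside), and 3 of the 8 complex enzymes were above 0. Within the complex the ratios ran from -0.15 (Qars) to 0.18 (Mars).

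The scaffold genes of the complex lay on both sides of 0. Aimp2, which holds the complex together, had 1993 counts (64.4 CPM) in the pTh17 library and 1754 counts (52.5 CPM) in the npTh17 library, a ratio of 0.30 (0.20 to 0.39). Eef1e1, also called Aimp3 or p18, had 3722 counts (120 CPM) in the pTh17 library and 3385 counts (101 CPM) in the npTh17 library, a ratio of 0.25 (0.18 to 0.32). Aimp1, also known as the precursor of the secreted cytokine EMAPII, had 3182 counts (103 CPM) in the pTh17 library and 3790 counts (113 CPM) in the npTh17 library, a ratio of -0.14 (-0.21 to -0.072).

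Transcript length moved with the ratio in these libraries. The median ratio was 0.23 over the 927 genes with the shortest transcripts, the first of 10 length classes of equal size. It was between -0.060 and 0.0051 in each of the 8 classes of the longest transcripts. Aimp1 and Aimp2 lie in the class of the shortest. With the length trend removed, the ratio was 0.17 for Aimp2 and -0.28 for Aimp1. Of the exon bases of Aimp2, 29.4% are shared with Eif2ak1 on the opposite strand, so its count is uncertain.

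Enzymes are divided into class I and class II by the fold of their catalytic domain. Among cytosolic and dual enzymes of a single class, 6 of 9 class I genes were above 0 (median ratio 0.093), as were 7 of 11 class II genes (median 0.014). Among mitochondrial enzymes, 5 of 9 class I genes were above 0 (median 0.078) and 4 of 8 class II genes (median -0.066). Both mitochondrial genes past the 25% threshold on the higher side, Mars2 and Ears2, are class I, and so are Wars2 and Rars2 on the lower side. The others past it on the lower side, Fars2, Hars2 and Nars2, are class II.

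A further division was by regulation. ATF4 binds the C/EBP-ATF response element, and 13 of the cytosolic or dual enzymes were listed as known ATF4 targets: Aars, Cars, Eprs, Gars, Iars, Lars, Mars, Nars, Sars, Tars, Vars, Wars and Yars. This list was written from general knowledge of the ATF4 response, but with earlier results of these data known. The split below is therefore not independent of these libraries. Of the 13 listed, 11 were above 0 (median ratio 0.093), although Eprs and Tars are within 0.0022 of it. Of the other 8, 3 were above 0 (median -0.11). The exceptions in the listed group were Gars and Wars, below 0, and in the other group Farsa, Hars and Kars, above 0. With ratios from FPKM, 8 of the 13 listed and 2 of the other 8 were above 0. The count for the listed genes thus moved when FPKM was used, while the medians (0.093 and -0.085) kept their order. Correcting the ratios for transcript length alone gave medians of 0.13 (listed) and -0.090 (others). A separate correction, for annotated transcript length and GC content, gave 0.11 (listed) and -0.037 (others), the narrowest gap among these settings. Both corrections left 11 of the 13 listed and 3 of the other 8 above 0.

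RefSeq promoter windows, from 250 bases before to 50 after a gene's start on the GRCm38.p6 assembly, were found for 31 of the 41 members. The element was searched as TGATGNAA, or TTNCATCA where it reads on the opposite strand. It occurred in 5 of the 31 members with a window (16.1%) and in 1219 of all 27025 genes with a window (4.51%). All 5 genes with a match (Aars, Gars, Iars, Tars and Yars) are among the listed enzymes, 8 of which had a window. None of the 14 mitochondrial enzymes with a window had a match. By comparison, 9 of the 14 cytosolic or dual enzymes with a window had none either, and the ATF4 list was drawn from cytosolic and dual enzymes alone. For each gene with the element 1 match is shown, Aars having more than 1, so that the element can be seen beside the ratios below; each is 30 bases read 5′ to 3′ on the gene's strand, with the element in capitals.
Aars, chr8:111033840-111033869 (+): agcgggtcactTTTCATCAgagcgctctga
Gars, chr6:55037960-55037989 (+): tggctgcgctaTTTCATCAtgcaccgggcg
Iars, chr13:49682126-49682155 (+): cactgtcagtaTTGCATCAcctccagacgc
Tars, chr15:11399655-11399684 (-): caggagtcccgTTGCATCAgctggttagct
Yars, chr4:129189895-129189924 (+): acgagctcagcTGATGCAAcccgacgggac
The genes that carry a match did not share a direction: their ratios were 0.13 (Aars), 0.087 (Iars), 0.22 (Yars), 0.0018 (Tars) and -0.13 (Gars). A match describes letters in a window and does not show that the site is used. The E-box CACGTG, the core motif of MYC and related factors, reads alike on both strands. It was found for 5 of the 31 members with a window (Aars, Ears2, Farsb, Iars and Tars, 16.1%) and for 8.09% of all genes with a window.

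The wider ATF4 response was followed in 20 genes that are not synthetases, covering stress factors and enzymes and carriers of amino acid supply. This list too was chosen with earlier results of these data known, so it is not independent of these libraries. Of the 17 with at least 1 CPM, 16 had a ratio above 0, beside 5240 of all 10597 genes. The median of the 17 was 0.20. By the 25% threshold, 5 of the 17 were higher in the pTh17 library and 1 was lower, where 16.5% and 15.2% of all genes were. With the length trend removed, Ddit3 and Psph, a serine synthesis enzyme, fell short of it on the higher side, and Mthfd2, of mitochondrial folate metabolism, passed it; Aldh18a1 fell short on the lower side. The 4 with the largest ratios at 5 CPM or more were all higher in the pTh17 library. Trib3, a pseudokinase that dampens the response, had 191 counts in the pTh17 library and 135 counts in the npTh17 library (0.61, 0.29 to 0.94). Sesn2, a leucine sensor that restrains mTORC1, had 1412 counts in the pTh17 library and 1152 counts in the npTh17 library (0.41, 0.29 to 0.52). Ddit3, the stress factor CHOP, had 344 counts in the pTh17 library and 281 counts in the npTh17 library (0.40, 0.17 to 0.64), but a ratio of 0.16 with the length trend removed, short of the 25% threshold. Ddit3 overlaps the end of Mars on the opposite strand, the shared bases being 1.99% of the exon bases of Mars. Their share of the exon bases of Ddit3 was not taken. Mars had far more counts, 7287 in the pTh17 library and 6943 in the npTh17 library. The count of Ddit3 is therefore uncertain, as strand use in counting is not stated.

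The fourth was Atf5, a related factor, which had 304 counts in the pTh17 library and 254 counts in the npTh17 library (0.37, 0.13 to 0.62). Atf4 itself had 8166 counts (264 CPM) in the pTh17 library and 8188 counts (245 CPM) in the npTh17 library (0.11, 0.064 to 0.15). Aldh18a1, which makes the precursor of proline, was the only one of the 17 below 0, at -0.35 (-0.40 to -0.30). The 3 genes under 1 CPM did not have the same direction. Nupr1 had 2 counts in the pTh17 library and 30 counts in the npTh17 library, Slc7a11 had 7 counts in the pTh17 library and 20 counts in the npTh17 library, and Stc2 had 16 counts in the pTh17 library and 14 counts in the npTh17 library. Atf4, Psph, Mthfd2, Aldh18a1, Nupr1, Slc7a11 and Stc2 were named after their values were seen.

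**Figure D4:**
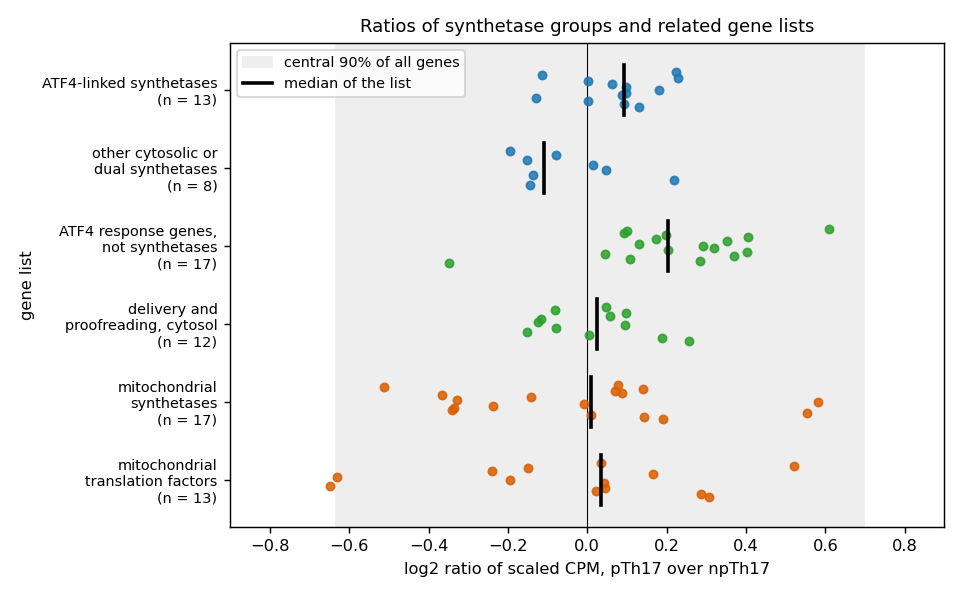
Log2 ratio, pTh17 over npTh17, of each gene (points) in 6 lists, with the list median (black bars) and the central 90% of all 10597 genes (grey band, -0.63 to 0.70). The medians are 0.093 for the listed ATF4 targets among the synthetases and -0.11 for the other cytosolic or dual enzymes. For the other ATF4 response genes the median is 0.20. Only Mrrf lies outside the band. The lists were chosen with earlier results of these data known.

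Steps around the synthetases in the cytosol were also close to equal. Of 12 genes for delivery and proofreading of charged tRNA, 7 were above 0, the median was 0.025, and none was past the 25% threshold. Aarsd1, which hydrolyses serine wrongly attached to alanine tRNA, had 2135 counts in the pTh17 library and 1933 counts in the npTh17 library (0.26, 0.17 to 0.34). Dtd1, which removes D-amino acids from tRNA, had 1353 counts in the pTh17 library and 1284 counts in the npTh17 library (0.19, 0.076 to 0.30). Eef1a1, the factor that carries charged tRNA to the ribosome, had 12154 CPM in the pTh17 library and 13501 CPM in the npTh17 library (-0.15, -0.16 to -0.15). Eef1a1 has many processed pseudogenes, among which its reads could have been split. Eef1g, a subunit of the exchange factor for that protein, had 1773 CPM in the pTh17 library and 1934 CPM in the npTh17 library (-0.13, -0.14 to -0.11).

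The mitochondrial translation list had, like the mitochondrial synthetases, a middle near 0. Of 13 genes 8 were above 0, with a median of 0.035. The standard deviation across genes was 0.34, below the 0.49 over all 10597 genes. By the 25% threshold, 1 was higher in the pTh17 library and 2 were lower, counts near or below the shares of 16.5% and 15.2% over all genes. Mrrf, which recycles the mitochondrial ribosome, had 1345 counts in the pTh17 library and 2278 counts in the npTh17 library (-0.65, -0.75 to -0.55). Mtif3, an initiation factor, had 604 counts in the pTh17 library and 1012 counts in the npTh17 library (-0.63, -0.78 to -0.49). Tsfm, the exchange factor of the mitochondrial elongation factor Tu, had 1331 counts in the pTh17 library and 1002 counts in the npTh17 library (0.52, 0.40 to 0.64). Mrrf and Mtif3 were thus lower in the pTh17 library and Tsfm higher.

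Gatb encodes a subunit of GatCAB, the amidotransferase that acts after Ears2. It had 540 counts in the pTh17 library and 472 counts in the npTh17 library (0.31, 0.13 to 0.49). Its partner genes were Gatc at 0.29 and Qrsl1, the catalytic subunit, at -0.15, on opposite sides of 0. Gatc and Qrsl1 were named after their values were seen.

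Several members start close to a gene on the other strand. Counted were protein-coding genes of at least 1 CPM that started up to 1000 bases upstream, or whose start overlapped over a short stretch only. Such a gene was found for 10 members, which gives 9 gene pairs since Hars and Hars2 are neighbours of each other. The ratios had the same sign in 5 pairs and opposite signs in 4. Rars2 (-0.37) starts 13 bases from Orc3, an origin recognition subunit, whose ratio was -0.47 (-0.53 to -0.40). Fars2 (-0.34) is paired with Lyrm4, an iron-sulfur cluster factor, at -0.54 (-0.76 to -0.32). Yars (0.22) is paired with S100pbp at 0.14. A further pair of like sign was Sars2 (0.087) with the mitochondrial ribosomal gene Mrps12 (0.94), in which the neighbour differed far more than the synthetase.

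Opposite signs were found for Hars (0.047) with Hars2 (-0.34), Kars (0.014) with the telomere protein gene Terf2ip (-0.39), Ears2 (0.55) with Ubfd1 (-0.025) and Aimp2 (0.30) with Pms2, a mismatch repair gene (-0.26). Because strand use in counting is not stated, members that share exon bases with another gene are uncertain. Besides Farsb and Aimp2 these include Iars2, which shares 22.9% of its exon bases with Rab3gap2, and Fars2 with 8.72% shared with Nrn1. Aars shares 14.3% of its exon bases with Exosc6 on the same strand. Hars and Hars2 overlap at their starts, over 7.97% of the exon bases of Hars and 4.56% of those of Hars2.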

How the data were processed

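Polyadenylated RNA was captured with oligo(dT), fragmented and copied from random primers, per the labels' protocols, which describe neither a strand-marking step nor molecular identifiers. The authors deposited whole-number counts per gene and FPKM values (fragments relative to transcript length and depth), with a column for each library, per the file headers. The submitters' processing notes name mm10 as the genome build. Which aligner, counting program and annotation were used is not given in the sources used here. Of 23682 features, 1646 have no gene name; they held 2.50% of counts in the pTh17 library and 2.90% in the npTh17 library and entered neither the library totals nor the ratios.

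Counts were divided by library totals scaled by TMM (edgeR 4.0.16, R 4.3.3; factors 1.0015 in pTh17 and 0.9985 in npTh17), with a prior count of 1 in each log2 ratio. Genes with a mean of 1 CPM or more were kept. There is 1 library per condition, so no test was run, and intervals (Clopper-Pearson, 95%) cover counting error only; PCR reads are not independent molecules. Few features had exactly 1 count (93 in pTh17, 79 in npTh17) beside those with exactly 2 (361 in each), so 1 fragment may often have been counted more than once and intervals may be too narrow. Levels were compared between genes only as the deposited FPKM. The length trend was fitted on the length implied by a gene's counts and FPKM. The length and GC trend was a separate fit on annotated transcript length and GC content. Positions and exon overlaps are from GENCODE M21, counted from base 1; promoter sequences are from RefSeq (GRCm38.p6). The ratio and its interval were tested on simulated counts with counting error only. These held no repeated counting and no spread between cultures, so the test checks the calculation and not whether the intervals are wide enough here.

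Counts and medians cover all members; single values of 1 member, 1 marker gene and 1 sequence are not reported here. The other members were each given a value; of each related list, up to 4 genes with the largest absolute ratio at a mean of 5 CPM or more were named. Members and lists were chosen with earlier results of these data known.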

Additional observations from a re-analysis of the deposited data

How the results depend on the processing

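No paired analysis was possible because each condition has 1 library and the results come from no test. No member changed direction without a scaling factor, with unnamed features kept in the library totals or with a prior count of 5. DESeq2 1.42.0 size factors turned Tars; ratios from FPKM turned Eprs, Sars, Tars and Kars; removing the length trend turned Lars2, and removing the length and GC trend turned Lars2 and Sars2. All of these have ratios under 0.09 in size. Mitochondrial enzymes, and all members, lower in the pTh17 library past the 25% threshold numbered 5, and 3 with FPKM ratios, 3 with the length trend removed and 2 with the length and GC trend removed; Hars2, Nars2 and Fars2 lie near the threshold. With the length and GC trend removed, Eef1e1 joined Mars2 and Ears2 on the higher side. Median ratios ran from 0.041 to 0.095 for cytosolic enzymes and from 0.0047 to 0.059 for mitochondrial enzymes. Over all counts, the share of cytosolic enzymes was 0.434% in pTh17 and 0.416% in npTh17, and that of mitochondrial enzymes 0.0683% in pTh17 and 0.0690% in npTh17. Of summed FPKM, cytosolic enzymes held 0.312% in pTh17 and 0.315% in npTh17, and mitochondrial enzymes 0.0489% in pTh17 and 0.0528% in npTh17; the cause was not tested. Ratios left their counting interval for 2 members with FPKM, 7 with the length trend removed and 14 with the length and GC trend removed. The spread between cultures is unknown with 1 library each, and genes with few counts, such as Ears2 and Fars2, carry the widest intervals.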

Other observations

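Counts and FPKM gave different ratios for Cars and Sars, in opposite directions. Cars had a log2 ratio of 0.093 from counts and 0.24 from the deposited FPKM, with 37.8 FPKM in the pTh17 library and 32.1 FPKM in the npTh17 library. Sars had a ratio of 0.063 from counts and -0.085 from FPKM, with 83.2 FPKM in the pTh17 library and 88.2 FPKM in the npTh17 library. For the other 39 members the FPKM ratio lay within the counting interval of the ratio from counts. Cars and Sars were named after their values were seen, and the cause was not tested.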
